A study of Mus musculus with 2 samples.

Results

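Voltage-gated calcium channels open when a membrane is depolarised and let calcium into the cell. The pore is formed by a large α1 subunit, and the channels that need a strong depolarisation (high-voltage-activated) also carry a cytoplasmic β subunit and an extracellular α2δ subunit, which bring the pore to the membrane and tune its opening. In neurons the P/Q-, N- and R-type pores supply calcium for transmitter release, L-type pores couple activity to signalling in the cell body and dendrites, and T-type pores open at low voltage and assemble without an obligatory β or α2δ partner. The 10 genes described here were chosen by symbol: the 7 α1 genes Cacna1a, Cacna1b, Cacna1c, Cacna1d, Cacna1e, Cacna1g and Cacna1h, the α2δ genes Cacna2d1 and Cacna2d2, and the β gene Cacnb3. They are 10 of the 45578 genes in the table, and each symbol matched a single gene identifier.

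Ribosome-protected fragments (footprints) were sequenced from polysomes of whole brains of control mice at postnatal day 5. Both libraries came from animals of the same genotype, Smn+/-; SMN2tg/0 on the FVB strain, which carried 1 disrupted Smn allele and a human SMN2 transgene; the labels call them biological replicates 1 and 2. No second group, treatment or time point was analysed here, so the comparisons are between channel genes and between the replicates (n = 2). The libraries held 1866831 and 5261878 footprints, and 3 counts, the floor used for an undetected gene, correspond to 1.61 and 0.570 CPM, the counts scaled to the library total.

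The labelled tissue was checked with marker genes. The 7 neuronal markers summed to 5976 CPM and 4633 CPM in replicates 1 and 2, the 5 astrocyte markers to 1401 and 1476 CPM, and the 4 oligodendrocyte markers to 576 and 873 CPM. Microglial markers summed to 192 and 200 CPM, endothelial markers to 215 and 149 CPM, smooth muscle and pericyte markers to 92.7 and 81.1 CPM, and Purkinje cell markers to 185 and 263 CPM. Skeletal muscle markers summed to 86.8 and 65.0 CPM, most of it on Acta1, an actin whose sequence is close to that of other actins. The 4 retinal markers summed to 1.61 and 4.37 CPM, with Rcvrn at 0 in both libraries and Sag, at 3.23 CPM in replicate 2, the highest.

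All 10 channel genes were detected in both libraries and passed the minimum mean count of 10, with 48 footprints (Cacna1d, replicate 1) to 1538 footprints (Cacna2d1, replicate 2). Together they held 1984 footprints in replicate 1 and 6837 in replicate 2, or 1063 and 1299 CPM. Because the coding sequences ran from 1455 nucleotides for Cacnb3 to 7146 for Cacna1g, levels are compared between genes as footprint density, the CPM per kilobase of the longest annotated coding sequence. Density reflects mRNA abundance and ribosome load together, and in whole brain fewer cells of a type and less RNA per cell cannot be told apart.

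Among the pore-forming genes, Cacna1b, the N-type α1 subunit of presynaptic terminals, had the highest mean density. It had 277 footprints in replicate 1 and 945 in replicate 2, which gave densities of 21.2 (Clopper-Pearson 95% interval of the level 131 to 167 CPM) and 25.7 (168 to 191 CPM), with a mean of 23.5 ± 3.16 (SD, n = 2). Cacna1e, the R-type α1 subunit, had 227 and 817 footprints and densities of 17.8 and 22.8, with a mean of 20.3 ± 3.49. Cacna1a, the P/Q-type α1 subunit that dominates release at many mature synapses and is abundant in Purkinje cells, had 240 and 682 footprints and densities of 18.1 and 18.2, with a mean of 18.2 ± 0.105. The ranges of Cacna1b and Cacna1e overlapped, as did those of Cacna1e and Cacna1a, and in replicate 1 Cacna1a stood above Cacna1e. Over all transcripts, the order of these 3 genes was therefore not separated by the spread between replicates. The exception was that both values of Cacna1b were above both values of Cacna1a. On protein coding transcripts alone, Cacna1b held 272 and 925 footprints, Cacna1e 190 and 650, and Cacna1a 193 and 545. The mean densities were then 23.0, 16.5 and 14.6, so the overlap of Cacna1b and Cacna1e depended on footprints on other transcripts.

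By coding length, the T-type genes had lower mean densities. Cacna1g, a low-voltage-activated α1 subunit known for burst firing of thalamic neurons, had 189 and 621 footprints and densities of 14.2 and 16.5, with a mean of 15.3 ± 1.66. Cacna1h, a second T-type α1 subunit, had 90 and 339 footprints and densities of 6.81 and 9.10, with a mean of 7.95 ± 1.62. Over all transcripts, both values of Cacna1g lay below those of Cacna1a and above those of Cacna1h. On protein coding transcripts alone, Cacna1a held 193 and 545 footprints and Cacna1g 177 and 567. Their mean densities were then 14.6 and 14.2, so Cacna1a and Cacna1g were not separated there. Scaled to the longest transcript length, Cacna1e had 9.28 and lay below Cacna1g, at 13.1. Cacna1i, the remaining T-type gene and not among the 10, had densities of 7.55 and 6.10, which overlapped the range of Cacna1h.

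The L-type genes included the pore with the widest relative gap between the libraries and the pore with the lowest density. Cacna1c, the main L-type α1 subunit of brain and heart, had 100 and 458 footprints and densities of 8.03 (53.6 CPM, interval 43.6 to 65.2) and 13.1 (87.04 CPM, interval 79.3 to 95.4), with a mean of 10.5 ± 3.55. Its intervals did not overlap between the libraries, and its range overlapped that of Cacna1h. Cacna1d, an L-type α1 subunit that opens at less depolarised voltages than Cacna1c and supports pacemaking, had 48 and 171 footprints and densities of 3.96 and 4.999, with a mean of 4.48 ± 0.738. Cacna1d had the lowest density of the 10 genes in each library. The L-type genes of skeletal muscle and retina were near the floor: Cacna1s had 0 and 5 footprints and Cacna1f had 0 and 2, against a floor of 3 counts.

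Summed by channel type, the P/Q-, N- and R-type genes had a density of 57.1 in replicate 1 and 66.7 in replicate 2 (mean 61.9 ± 6.75, SD, n = 2). The pair of T-type genes among the 10 had 21.0 and 25.6 (mean 23.3 ± 3.28), and the pair of L-type genes 11.99 and 18.1 (mean 15.0 ± 4.29). The P/Q-, N- and R-type sum was 4.77 and 3.70 times the L-type sum in the respective libraries, and 2.72 and 2.60 times the T-type sum. Of the density of the 7 α1 genes, Cacna1b made up 23.4% ± 0.196, Cacna1e 20.2% ± 0.596, Cacna1a 18.3% ± 2.5 and Cacna1d 4.46% ± 0.0993. The presynaptic types thus carried the larger part of pore-forming footprints in both libraries.

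The accessory genes had higher densities than any pore-forming gene. Cacna2d1, the α2δ-1 subunit and a binding site of gabapentin, held 358 and 1538 footprints in the respective libraries, at 192 CPM (interval 172 to 213) and 292 CPM (278 to 307). Its densities were 57.9 and 88.3, with a mean of 73.1 ± 21.5 (SD, n = 2), the widest spread of the 10 genes. Cacna2d2, the α2δ-2 subunit, which also binds gabapentin and is prominent in cerebellum, had 279 and 863 footprints and densities of 43.02 and 47.2, with a mean of 45.1 ± 2.96. Both values of Cacna2d1 were above both values of Cacna2d2.

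Cacnb3, the β3 subunit, a cytoplasmic partner of N- and L-type pores, held 176 and 403 footprints in the respective libraries, at 94.3 CPM (interval 80.9 to 109) and 76.6 CPM (69.3 to 84.4). Its densities were 64.8 and 52.6, with a mean of 58.7 ± 8.6. It stood first of the 10 genes in replicate 1 and second in replicate 2, so its place against Cacna2d1 was not settled by these libraries, while both its values exceeded those of Cacna2d2. Across the accessory genes the lowest library value was 43.02, and across the 7 α1 genes the highest was 25.7, so the groups did not overlap. With the transcript of highest count alone they did, since Cacna2d2 had a mean density of 7.33 and Cacna1e 9.15. This keeps 1 of 10 annotated transcripts of Cacna2d2 and 1 of 6 of Cacna1e. By unscaled footprints the picture differed: Cacnb3 ranked seventh in mean CPM, behind Cacna1b, Cacna1e, Cacna1a and Cacna1g, whose coding sequences are 6822 to 7146 nucleotides long against its own 1455.

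**Figure D1:**
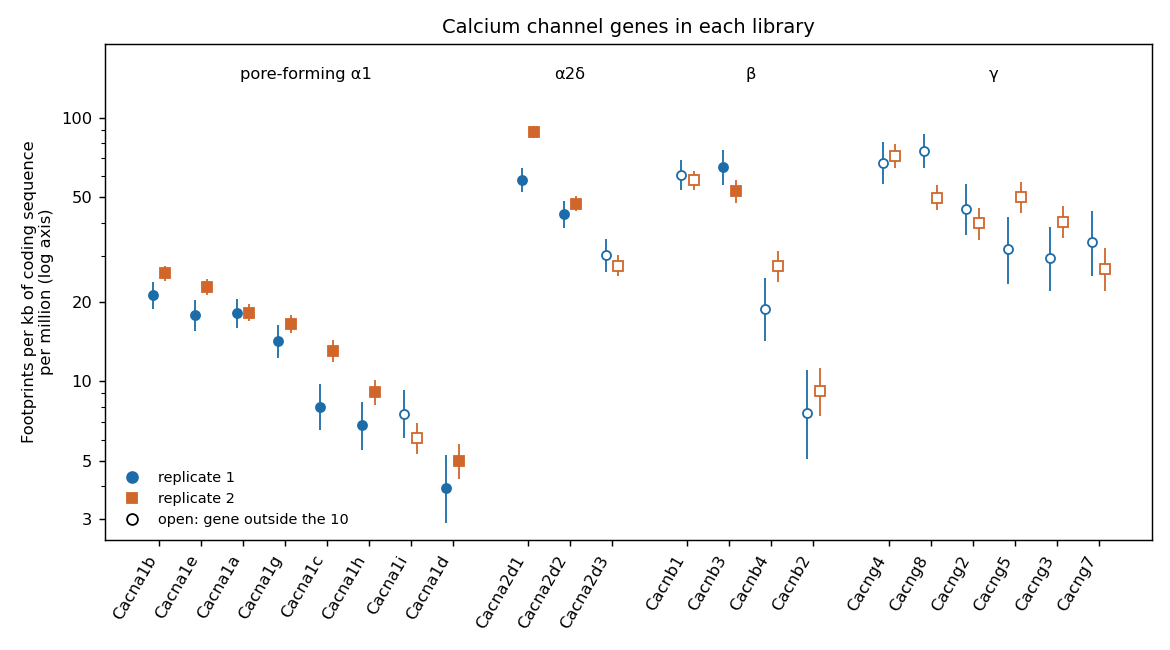
Footprint density of the calcium channel genes with at least 20 footprints, on a log axis, in replicate 1 (blue circles) and replicate 2 (orange squares); filled symbols are the 10 genes described, open symbols the rest of the family, and bars are Clopper-Pearson 95% intervals of counting error. The filled accessory genes lie between 43.02 and 88.3 and the filled α1 genes between 3.96 and 25.7.

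Relative to all 13317 coding genes that passed the count minimum, whose median density was 23.5, the pore-forming genes sat in the middle or the lower part of the range. Cacna1b lay at percentile 50.0, Cacna1e at 45.9, Cacna1a at 42.9, Cacna1g at 38.3, Cacna1c at 28.9, Cacna1h at 22.7 and Cacna1d at 12.4. The accessory genes lay at percentile 79.2 for Cacna2d1, 74.3 for Cacnb3 and 67.6 for Cacna2d2. By CPM, which counts every footprint on these long coding sequences, the α1 genes ranged from percentile 52.6 for Cacna1d to 91.9 for Cacna1b. A long α1 gene could thus hold many footprints and still have a middling number per kilobase.

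The other 16 genes of the family show how complete the 10 are. Of the β genes, Cacnb1, the β subunit of the skeletal muscle channel that is also made in brain, had densities of 60.6 and 57.7, a range that overlapped that of Cacnb3. Cacnb4, a β subunit abundant in cerebellum, had 18.9 and 27.3, and Cacnb2, known for the cardiac channel, had 7.62 and 9.17. Cacnb3 made up 42.7% and 35.8% of the summed β density in the respective libraries, and Cacnb1 39.9% and 39.3%. Cacnb1 lay above all α1 genes in both libraries, as Cacnb3 did, Cacnb4 in replicate 2 alone and Cacnb2 in neither.

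Of the α2δ genes, Cacna2d3 had densities of 30.1 and 27.4, above every α1 gene among the 10 and below Cacna2d2, and Cacna2d4 had 1 and 4 footprints. Cacna2d1 made up 44.1% and 54.1% of the summed α2δ density, Cacna2d2 32.8% and 28.9%, and Cacna2d3 22.9% and 16.8%. Cacna2d1 was the largest share in each library, and its share differed between them by more than that of any other α2δ gene.

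Since a high-voltage-activated channel holds a single copy of each of its α1, β and α2δ subunits, the class sums were set side by side over the whole family. The α1 genes of high-voltage-activated type summed to densities of 69.1 and 85.0, the 4 β genes to 152 and 147, and the 4 α2δ genes to 131 and 163. The β sum was 2.197 and 1.73 times the α1 sum (mean 1.96 ± 0.332, SD, n = 2), and the α2δ sum 1.897 and 1.92 times (mean 1.91 ± 0.0157). The α2δ sum over the β sum was 0.864 in replicate 1 and 1.11 in replicate 2. Each accessory class thus had more footprints per kilobase than the pores in both libraries, while the order of the accessory classes differed between them. With the transcript of highest count alone, which lowers every sum, the densities were 22.9 and 26.8 for the α1 genes, 62.5 and 57.1 for the β genes and 44.9 and 48.8 for the α2δ genes. Within the 10 genes alone, Cacnb3 was 0.937 and 0.621 times the α1 sum of high-voltage-activated type, and the α2δ pair 1.46 and 1.60 times. With the highest transcripts, the mean density was 31.2 for Cacnb3 and 18.1 for the α2δ pair, against 24.8 for these α1 genes. Here the α2δ pair lay below and Cacnb3 above. That setting keeps 1 transcript per gene, of 2 for Cacnb3, 12 for Cacna2d1 and 10 for Cacna2d2, so it also depends on the number annotated.

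The γ genes, most of which encode partners of AMPA receptors and not of calcium channels, had densities of the same order. Cacng4 had 67.5 and 71.7 and Cacng8 had 75.0 and 49.8, while Cacng1 and Cacng6 had 0 footprints in replicate 1 and, in that order, 2 and 4 footprints in replicate 2. Cacng2, Cacng3, Cacng5 and Cacng7 had mean densities of 42.4, 34.8, 40.8 and 30.1.

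Voltage-gated sodium channel genes are built on the same plan, with a long pore-forming α subunit and small β subunits. Of 9 sodium α genes in the table, 6 passed the count minimum, and the highest mean density among them was 47.9, for Scn2a1, a main form of immature brain. Scn2a1 had densities of 41.6 and 54.3, both above every value of the 7 calcium α1 genes. Scn3a, Scn8a, Scn1a and Scn9a, at 22.4, 18.2, 10.7 and 4.599, lay within the range of the calcium α1 genes. Of the 4 sodium β genes, Scn3b had the highest mean density, 371, and Scn4b the lowest, 4.55. These are descriptions, with no test of the difference between families.

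Proteins that hold calcium channels at release sites or bind them in the cytoplasm were given by a list of 15 genes, all of which passed the count minimum. Their mean densities ran from 3.37 for Rrad, a small GTPase that inhibits the channels, to 676 for Snap25, a membrane protein of the vesicle fusion machinery. Rims1, Rims2 and Rimbp2, which link presynaptic channels to vesicles, had 33.4 ± 6.1, 8.83 ± 2.21 and 22.2 ± 0.337 (SD, n = 2). Both values of Rimbp2 lay within the range of the P/Q-, N- and R-type pores and both values of Rims1 above it, and the fusion proteins Snap25, Syt1 and Stx1a, at 676, 415 and 272, lay above all 10 channel genes.

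The 10 genes were annotated with 101 transcripts, from 2 for Cacna1d and Cacnb3 to 23 for Cacna1c. Transcripts annotated as protein coding held 91.8% ± 0.0800 of the genes' footprints, against 75.5% ± 1.09 over all genes (SD, n = 2). The latter share includes genes with no coding transcript, so it is not a like-for-like reference for these 10 coding genes. The share over coding genes alone was not computed. Retained introns held 5.84% ± 0.00769, processed transcripts 2.00% ± 0.125 and transcripts marked for nonsense-mediated decay 0.377% ± 0.0369. Whether these transcripts share exons with coding ones was not examined, so their footprints need not come from separate molecules.

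Genes differed in this share. It was 80.4% (Clopper-Pearson 95% interval 74.8 to 85.2) and 79.9% (76.7 to 82.9) for Cacna1a, 83.7% (78.2 to 88.3) and 79.6% (76.6 to 82.3) for Cacna1e, and 80.0% and 85.3% for Cacna1h. It was 98.2% (95.8 to 99.4) and 97.9% (96.8 to 98.7) for Cacna1b, 94.0% and 95.2% for Cacna1c, and 96.1% and 96.0% for Cacna2d1. Cacna1d and Cacnb3 had no annotated transcript outside the coding class, and Cacna1b had 1, marked for nonsense-mediated decay. No retained intron was annotated for Cacna1b, Cacna1d, Cacna1g and Cacnb3, so the share depends on the annotation as well. The retained introns of Cacna1a, Cacna1e and Cacna1h, with 5, 4 and 4 annotated, held 34 and 113, 37 and 167, and 15 and 46 footprints. Among them were Cacna1e-002, of 4056 nucleotides, with 21 and 88 footprints, and Cacna1a-003, of 1150 nucleotides, with 18 and 50.

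**Figure D2:**
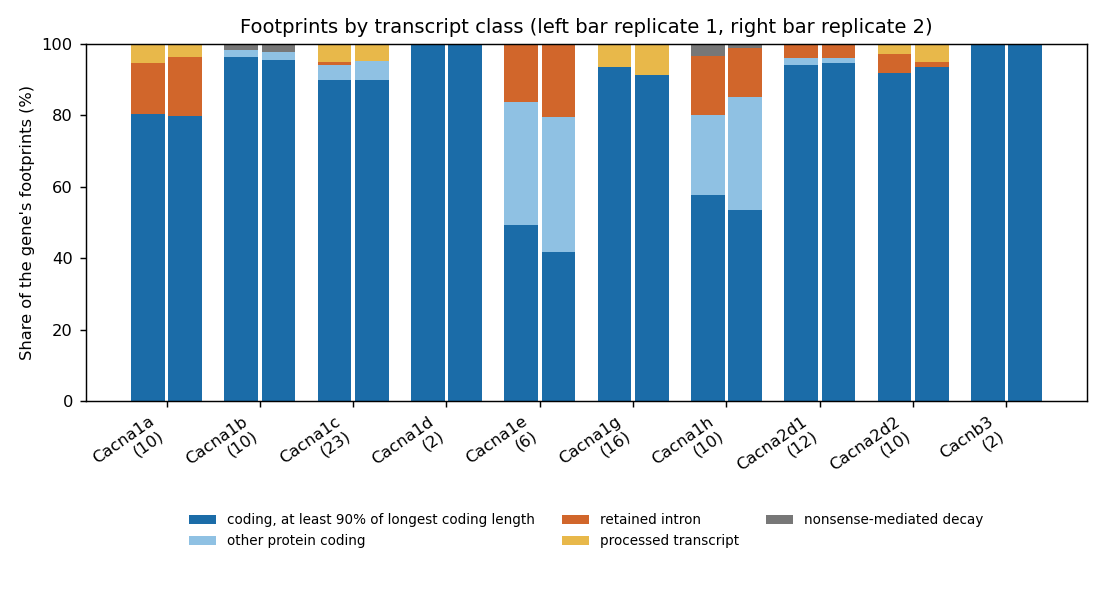
Share of each gene's footprints by annotated transcript class, in percent, with the left bar for replicate 1, the right bar for replicate 2 and the number of annotated transcripts in brackets. Retained introns took 14.2% and 16.6% of Cacna1a and 16.3% and 20.4% of Cacna1e. Cacna1b, Cacna1d, Cacna1g and Cacnb3 had no annotated retained intron, so none could be counted.

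Coding transcripts of at least 90% of the longest coding length split the footprints of Cacna2d1 and Cacna1b nearly evenly, across a wide range of untranslated lengths. For Cacna2d1, 7 such transcripts held 39 to 56 footprints each in replicate 1 and 189 to 230 in replicate 2. Cacna2d1-006, with a 3′ untranslated region of 3830 nucleotides, had 49 and 230, and Cacna2d1-004, with 395 nucleotides, had 47 and 196. For Cacna1b, 5 such transcripts held 41 to 62 and 163 to 196, with untranslated 3′ regions from 0 to 2683 nucleotides. The variance of these counts over their mean was 0.626 and 0.984 for Cacna2d1 and 1.10 and 1.13 for Cacna1b, where 1 is the value for counts drawn at random from the same mean. The split within these genes was thus close to a random one, and levels are given as sums per gene.

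Cacna1c was less even in the deeper library, while Cacna1a had too few such transcripts to judge. The pair of such transcripts of Cacna1a held 93 and 100 footprints in replicate 1 and 291 and 254 in replicate 2. The variance over the mean was 0.254 and 2.51, but each value rests on a single difference. The higher transcript of the pair also changed between the libraries. Cacna1c had 17 such transcripts. They held 2 to 10 footprints in replicate 1 and 17 to 49 in replicate 2, and the variance over the mean was 1.10 and 2.91. The highest mean count belonged to Cacna1c-014, which has an annotated 5′ untranslated region of 598 nucleotides, with 8 and 49 footprints against medians of 5 and 21. Cacna1c-001, with a 3′ untranslated region of 6652 nucleotides, had 3 and 23. For Cacna1g the 11 such transcripts held 11 to 23 and 39 to 63 footprints, with a variance over the mean of 0.602 and 1.58.

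The libraries were then compared gene by gene, as log2 ratios of replicate 2 over replicate 1 on TMM (trimmed mean of M values) library sizes. Counts were tested with a two-sided exact binomial test, with Benjamini-Hochberg adjustment across all 16427 genes tested, and called at an adjusted p under 0.05. The test compares 2 animals' libraries and covers counting noise alone. Of the 10 genes 3 were called, where 17.4% of all genes were: 2 were higher in replicate 2 (5.95% of all genes) and 1 was lower (11.5%). With so few genes, the count of 3 is close to the background share. DESeq2 size factors (17.4% of all genes called), protein coding transcripts alone (18.2%), no count minimum (9.93%) and a minimum mean count of 100 (34.0%) also gave 3 calls. With the highest transcript of each gene 1 was called (9.41%), and edgeR's exact test, whose dispersion came from the difference between these same libraries, called 0 of the 10 (0.0670%), with 0 at an unadjusted p under 0.05 against 4 in the exact binomial test.

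Cacna2d1 was higher in replicate 2, with a log2 ratio of 0.48 (exact interval 0.31 to 0.65; exact binomial test, adjusted p 1.57e-07). Cacna1c was also higher, with a log2 ratio of 0.57 (0.26 to 0.90; adjusted p 0.00248 by the same exact test). Cacnb3 was lower, with a log2 ratio of -0.42 (-0.68 to -0.16; adjusted p 0.0117 by the same exact test). The accessory subunits called thus moved in opposite directions. The Cacnb3 call was lost with library totals, at -0.30 (adjusted p 0.0972, exact binomial test), and with its highest transcript alone, at -0.41 and 0.166. Cacna1c was not called with its highest transcript alone either, at 1.02 and an adjusted p of 0.251.

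The other 7 genes did not pass the test, at log2 ratios of 0.29 for Cacna1h, 0.23 for Cacna1e, 0.21 for Cacna1d, 0.15 for Cacna1b, 0.09 for Cacna1g, 0.01 for Cacna2d2 and -0.11 for Cacna1a. With library totals, Cacna1e (0.35, adjusted p 0.00845) and Cacna1b (0.27, adjusted p 0.0316) were called too, where 19.0% of all genes were. For Cacna1d, the least deeply covered, the interval ran from -0.26 to 0.71, so a difference of this size was not detectable at its depth. Ratios were above 0 for 8 of the 10 genes, and for 8290 of all 16427 genes. The median was 0.18 over the 10 genes and 0.01 over all genes, and it was 0.30 and 0.13 with library totals.

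**Figure D3:**
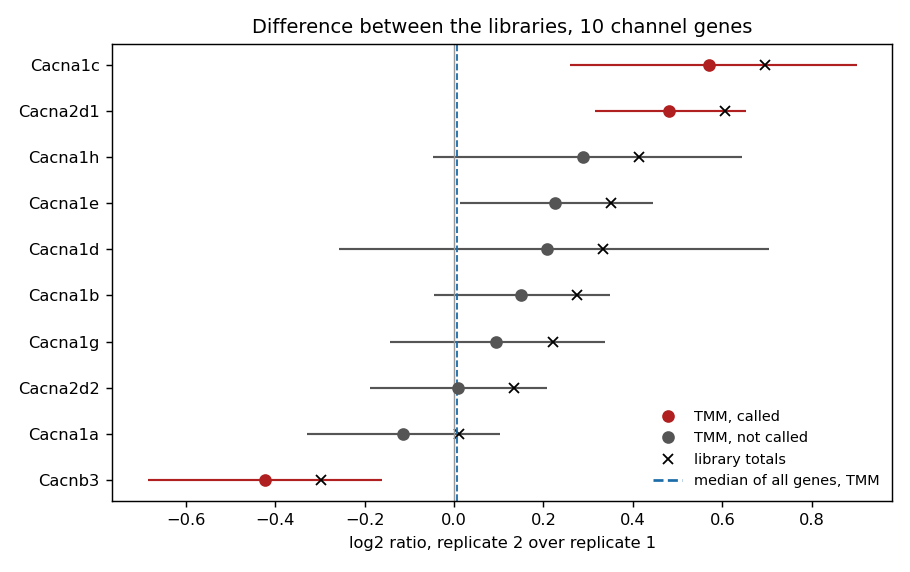
Log2 ratio of replicate 2 over replicate 1 for each of the 10 genes, with exact 95% intervals of counting error on TMM library sizes; red points passed the exact binomial test, crosses give the ratio with library totals and the dashed line the median of all genes. Cacna1c (0.57) and Cacna2d1 (0.48) lie to the right of 0 and Cacnb3 (-0.42) to the left.

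Log2 ratios fell with footprint density over all coding genes tested, from a median of 0.21 in the 10% of genes with the lowest density to -0.27 in the 10% with the highest. For its removal, the trend was fitted on the footprints of both libraries per nucleotide of the longest transcript, not of the coding sequence. This fitted trend was small for the 10 genes, between -0.05 for Cacna2d1 and 0.10 for Cacna1d. With the trend removed, Cacna2d1 had a ratio of 0.53, Cacna1c 0.49 and Cacnb3 -0.40, and all 3 were called by the exact binomial test, at adjusted p of 7.17e-09, 0.0146 and 0.0198 (16.2% of all genes were called in this setting). The differences of these 3 genes were thus about as large without the trend.

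**Figure D4:**
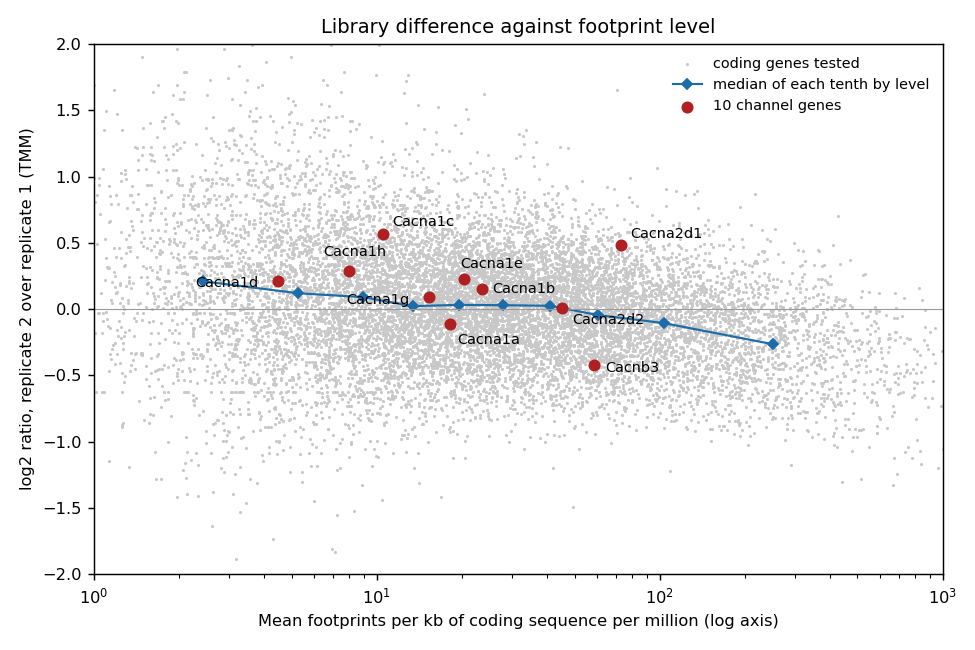
Log2 ratio of replicate 2 over replicate 1 on TMM library sizes against mean footprint density (log axis) for 13317 coding genes tested (grey; 191 lie outside the window), with medians of 10 equal groups of genes by density (blue) and the 10 channel genes (red). Cacna2d1 lies above the medians near its density and Cacnb3 below them.

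Other genes and cell type markers moved between the same libraries. Of the 11 further family genes that passed the count minimum, only Cacng8 was called, with 178 and 333 footprints and a log2 ratio of -0.71 (adjusted p 4.63e-06, exact binomial test). The remaining 5 family genes, Cacna1f, Cacna1s, Cacna2d4, Cacng1 and Cacng6, had too few footprints to be tested. Of the sodium α genes tested, 1 of 6 was called, Scn2a1 at 0.26 (adjusted p 0.00581, exact binomial test). Of the 15 partner genes 4 were called, 1 higher and 3 lower in replicate 2, among them Akap5, an anchor of kinases at L-type channels, at 0.51, and Snap25 and Syt1 at -0.55 and -0.20.

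Neuronal markers were called lower in replicate 2 for 5 of 7 genes, from -0.20 for Syt1 to -1.08 for Gap43, a growth cone protein; of the 10% of coding genes with the highest density, 58.3% were called, in either direction. With the density trend removed, Tubb3, Stmn2, Snap25 and Gap43 were still called lower, at -0.45, -0.46, -0.36 and -0.64. In that setting Syt1 was at 0.05 and Dcx at 0.12, neither called, while Map2 turned from -0.06 to 0.33 and was called. Oligodendrocyte markers were called higher for 2 of 4 genes, among them Mbp at 0.70, where 5.95% of all genes were called higher. Of the Purkinje cell markers 1 of 4 was called, Pcp2 at 1.65, while Calb1, Car8 and Itpr1 were at 0.34, 0.30 and -0.02. Of the microglial markers P2ry12 was called higher at 0.82 and C1qa lower at -0.64, and endothelial Cldn5 was called lower at -0.91. Of the smooth muscle and pericyte markers, 2 were tested, and Acta2 was lower at -0.56, as was Acta1 of the skeletal muscle markers at -0.70. The other skeletal muscle markers tested were not called and went both ways, Myh3 at 1.97, Myh8 at 1.88 and Ryr1 at -0.96. They held 1 to 30 footprints per library. The part of these shifts in the Cacna2d1, Cacna1c and Cacnb3 differences was not tested.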

How the data were processed

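The authors deposited 1 table of whole-number footprint counts per transcript for 2 libraries of 1 group, without normalization, with annotated lengths; the submitters' processing notes name Trimmomatic 0.36, Bowtie2 2.2.6, SAMtools and build GRCm38.p4, with no role given. Per the labels' protocols, fragments of 25 to 35 nucleotides were selected after RNase I digestion of pooled polysomal fractions. The handling of duplicate and multiply matching fragments, strand and the annotation release are not given in the sources used here. In 49 pairs of transcripts of the same gene with identical lengths, the mean squared difference over the sum of paired counts was 1.07 (0 if each fragment were counted on both), so counts were summed per gene; fragments shared between paralogs or overlapping genes remain uncertain.

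Density used library totals and the longest protein coding sequence. Ratios used TMM factors of 0.957 and 1.04 (edgeR 4.0.16), which moved log2 ratios down by about 0.13 from library totals, and a prior of 0.5 CPM; tests used scipy 1.17.1 and were tested on simulated data. No quasi-likelihood model was possible, since 1 group gives no contrast. Intervals and p-values cover counting error only, because they hold no term for variation between animals. PCR copies are not independent molecules, so where they were counted the intervals are too narrow even for that. DESeq2 1.42.0 size factors were an alternative. All 10 genes, the detected genes of the calcium channel family and the extremes of the sodium channel and partner lists were to be named, and some of these are not reported here; further genes of those lists and markers were named after their values were seen. The members and lists were chosen with earlier results of these data known. Gene positions and sequences were not used here.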

Additional observations from a re-analysis of the deposited data

How the results depend on the processing

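The alternatives were other scalings, count filters, transcript sets, length definitions, a test with dispersion, and removal of the density trend. Of the 10 genes, 1 was called with the highest transcript per gene and 0 with edgeR's exact test, which had 0 at an unadjusted p under 0.05; the exact binomial test had 4 at that level. The remaining settings called 3 or 4. The summed log2 ratio of the 10 genes was 0.16 (interval 0.09 to 0.24) and 0.29 with library totals; with the highest transcript per gene it was 0.12, and the interval, -0.02 to 0.27, included 0. Small ratios changed sign for Cacna1a, to 0.012 with library totals and 0.10 with the highest transcript, and for Cacna1g, to -0.18 with the highest transcript.

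Scaling to the longest transcript length gave summed densities of 51.0 for the 5 high-voltage-activated α1 genes, 19.9 for the T-type pair, 59.5 for the α2δ pair and 30.3 for Cacnb3, and the accessory genes stayed above every α1 gene. The highest transcript over its own coding length gave 24.8, 3.98, 18.1 and 31.2, and this order no longer held, since that setting keeps 1 transcript of genes with 2 to 23. Protein coding transcripts alone gave 68.5, 20.8, 112 and 58.7, and all 10 genes kept their rank by mean density. With the longest transcript length 5 kept it, and Cacna1e, at 9.28, fell below Cacna1g, at 13.1. Leaving out either replicate gave 69.1 to 84.8, 21.0 to 25.6, 101 to 135 and 52.6 to 64.8, each within 1 SD of the mean by construction. The share on coding transcripts was 92.2% with any annotated coding length. Apart from the points that follow from construction, the cause of each change was not tested.

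No paired analysis was possible because both libraries belong to 1 group. With 2 animals, the spread of each level rests on a single difference, and replicate 1 limits precision for Cacna1d, Cacna1h and Cacna1c, with 100 footprints or fewer.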
